A study of Mus musculus with 28 samples.

Results

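Microglia and brain macrophages of wild-type (WT) mice at 11–12 months of age were compared, with 4 libraries of microglia and 3 of macrophages, which are 7 of the 28 libraries of the series. They were chosen by their library names and titles, and the microglia and macrophage count tables were joined on the gene identifier, which left 49669 shared genes. The study profiled these cells in a mouse model of neuropsychiatric lupus. The WT mice were female, carried 2 floxed Casp8 alleles (Casp8flox/flox) on a C57BL/6 background and had no Cre. The CReCOM mice of the series share those alleles and add a Cre transgene driven by the CD11c promoter. CReCOM mice and WT mice of 5–6 months enter here only where the difference between the cell types was set against theirs. After perfusion and removal of the meninges, brains were digested with enzymes and sorted on CD11b and CD64, with macrophages taken as CD45hi and microglia as CD45lo. RNA amounts of 1 ng for macrophages and 2 ng for microglia went into libraries of mRNA 3′ ends (QuantSeq), so input and cell type cannot be told apart. Each library is 1 mouse, and by the mouse numbers the 7 libraries come from 6 mice, of which 1 gave both cell types. An age field in the sample descriptions gives 5–6 months for these microglia, whereas the titles and library names call them old, and the grouping follows the names.

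Microglia are the resident macrophages of the brain parenchyma. They arise from yolk sac progenitors, renew themselves in place, and depend on signalling through the CSF1 receptor and on TGF-β for their identity. Macrophages at the borders of the brain and monocytes recruited from bone marrow through CCR2 carry more CD45. Neutrophils and NK cells also bear CD11b and high CD45, and in the study's flow cytometry they are told from macrophages by Ly6G and NK1.1, while macrophages are required to carry CD64, a gate that should remove both.

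The 7 libraries held 4183887 to 5901828 counts assigned to genes, and a floor of 3 counts in a library equals 0.508 to 0.717 CPM (the authors' counts scaled to an equal library total), which covers counting error only. Over the genes expressed in either group, Pearson's r of log2(CPM + 1) was 0.761 to 0.801 between microglia libraries and 0.289 to 0.415 between a microglia and a macrophage library. Among macrophages, replicates 2 and 4 correlated at 0.783, and replicate 7 stood apart at 0.606 and 0.630. In replicate 7, 9555 genes had a count, whereas replicates 2 and 4 had 12709 and 13116 such genes and microglia 11205 to 12394. These values describe the libraries and carry no p, since genes are not independent. Calls of genes discussed below that replicate 7 or another library decides are given with and without it. Counts of called genes per list also moved when 1 library was left out. These shifts are given for some lists only, so a count given once can still depend on 1 library. Values by library are listed below for microglia replicates 1, 2, 3 and 5 and for macrophage replicates 2, 4 and 7, in that order, and microglia come first where values are set against each other.

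The genes of the sort were read first, as a check and not as a finding. Ptprc, which encodes CD45, was at 486, 358, 370.4 and 318 CPM in microglia and 1508, 2252 and 1990.3 CPM in macrophages. The groups did not overlap and differed in the direction of the gate. Itgam, the CD11b chain shared by both gates, overlapped between the groups, at 686 to 945 against 361 to 861 CPM. Fcgr1, which encodes CD64, was at 122, 142, 104 and 78.2 CPM in microglia and 21.2, 15.3 and 33.5 CPM in macrophages, so the macrophage gate was lower for a gene used to define it. Siglech, a sialic acid binding lectin of microglia, was at 744, 685, 542 and 434 CPM in microglia and 0.508, 5.73 and 0 CPM in macrophages, where most of the counts came from replicate 4.

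Markers of resting microglia were higher in microglia in 29 of the 29 members tested, of 30 listed. Of these, 16 were over the expression limit in both cell types, and the others passed it only in the group where they are high, which favours a call. Members of every list below that passed it in 1 cell type only share this limit. The fold changes, given as microglia over macrophages on the log2 scale, had a median of 5.24, against −0.03 over all 8424 genes tested, which holds for every list median below, and 10.1% of all genes tested were called higher in microglia. A gene was called when the adjusted p from edgeR was under 0.1 and the fold change over 1.5. The 30 genes summed to 40574, 44699, 41142 and 39229 CPM in microglia and to 3636, 3494 and 3944 CPM in macrophages. The ratio of the mean sums was 11.2, and Csf1r, the CSF1 receptor that both cell types need, gave the most to the macrophage sum. In bulk samples, fewer cells of a type and less RNA per cell cannot be told apart.

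Markers of blood monocytes were higher in macrophages in 20 of 20 members tested, of which 4 were over the expression limit in both cell types, and 11.5% of all genes tested were called in that direction. They summed to 591, 517, 481 and 438 CPM in microglia and to 33115, 27751 and 33753 CPM in macrophages, a ratio of 62.2. The median log2 fold change was −10.26 as fitted and −7.69 with the 10 genes that lay at the floor in microglia set at their bound. Ccr2, the receptor that draws monocytes out of bone marrow, was at 19.3, 9.21, 14 and 5.65 CPM in microglia and 622, 551 and 399 CPM in macrophages. Every macrophage library was above every microglia library (log2 fold change −5.38, SE 0.44, adjusted p = 3.19e-05).

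Markers of border macrophages did not move together. Of 16 markers, 7 were at or under the floor in every macrophage library, and 6 passed the expression limit, with 2 higher in microglia (Gas6 and Stab1) and 2 in macrophages (F13a1 and Clec4n). The list summed to 669 to 833 CPM in macrophages, most of it F13a1. Clec4n, the lectin Dectin-2, had 0 counts in microglia and 1.02, 31.8 and 70.2 CPM in macrophages (adjusted p = 0.0267). Lyve1, a hyaluronan receptor, and Folr2, a folate receptor, had 0 counts in all 3 macrophage libraries. Siglec1, the sialoadhesin gene, reached at most 0.239 CPM there. Cd163, the haemoglobin scavenger receptor, was at 0, 5.12, 4.98 and 33.5 CPM in microglia and 0.169, 0 and 0.22 CPM in macrophages, so its highest value lay in a microglia library, replicate 5. Mrc1, the mannose receptor, was at 18.4, 8.53, 16.2 and 116 CPM in microglia and 4.74, 11.9 and 15 CPM in macrophages, with overlap between the groups (adjusted p = 0.296). F13a1, a coagulation factor made by monocytes and some border macrophages, was at 0, 26.1, 0 and 21.7 CPM in microglia and 636, 629.6 and 709 CPM in macrophages (log2 fold change −5.70, SE 1.51, adjusted p = 0.0378). Without microglia replicate 2 the log2 fold change was −6.45, and the call was lost without macrophage replicate 7 (adjusted p = 0.109), and the list then held 1 gene higher in macrophages. The macrophages are named here by their label and gate only.

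Granule genes of neutrophils had counts in the macrophage libraries, although the CD64 gate should remove those cells. Of 18 neutrophil markers tested, 17 were higher in macrophages and 0 in microglia, and they summed to 30565, 28594 and 12568 CPM in macrophages and 61.3 to 249 CPM in microglia. Replicate 7 had the lowest sum. Most of the sum came from 2 genes, S100a8 and S100a9, with means of 8873 and 7303.5 CPM of the mean sum of 23909 CPM in macrophages. Only 2 of the 18 were over the expression limit in both cell types and 4 of the 22 listed were not tested, so the direction of the counts was largely set by the filter. Ly6g, the gene of the neutrophil antigen Ly6G, was at 77.9, 27.5 and 0 CPM in macrophages and had 0 counts in microglia. S100a8, which encodes a subunit of calprotectin, was at 0.621, 34, 23.4 and 1.18 CPM in microglia and 11236, 10865 and 4516 CPM in macrophages. The groups were far apart, with microglia replicates 2 and 3 above the other microglia libraries (log2 fold change −9.17, SE 1.38, adjusted p = 0.00291). Without microglia replicate 2 the log2 fold change was −9.97. Ltf, the lactoferrin gene of secondary granules, had at most 1 count in any microglia library and was at 824, 622 and 182 CPM in macrophages, at least 907-fold higher.

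Genes of natural killer (NK) cells were higher in macrophages, and those of the T cell receptor were near 0. Of 16 T and NK cell markers tested, 14 were higher in macrophages and 0 in microglia, and the list summed to 4315, 5327 and 2193 CPM in macrophages and 15.9 to 44.8 CPM in microglia. None of the 16 was over the expression limit in both cell types (0 genes) and 6 listed genes were not tested, so the direction of this count too was largely set by the filter. Gzma, a killer cell protease gene (ENSMUSG00000023132, chromosome 13 of GRCm38 from 113093825 to 113100981), had 0 counts in microglia and 1299, 1832 and 794 CPM in macrophages, at least 2187-fold higher. Ncr1, the gene of the NK cell receptor NKp46, was at 153, 61.4 and 23.8 CPM in macrophages. Cd3e, Cd3d and Trac, which form the T cell receptor complex, reached at most 1.19, 2.63 and 0.717 CPM in any macrophage library. Of the B and plasma cell genes, Igkc was at 0, 129, 0 and 75.9 CPM in microglia and 389, 275 and 1358 CPM in macrophages, highest in replicate 7 (adjusted p = 0.236). Immunoglobulin genes share sequence with each other, so their counts are uncertain. Of 8 dendritic cell markers, 2 were higher in microglia and 3 in macrophages, or 1 in macrophages without replicate 2 of that group. Of 4 B and plasma cell markers 1 was higher in macrophages, and 0 were without macrophage replicate 2 or microglia replicate 1, 2 or 3. Of 4 mast cell and basophil markers 2 were higher in macrophages, and 0 were without macrophage replicate 2.

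Markers of cells outside both gates that are native to the brain had the higher mean sum in microglia, other than the oligodendrocyte list, and the neuronal and oligodendrocyte sums overlapped between the groups. Endothelial and mural markers summed to 1128, 1053, 1701 and 524 CPM in microglia and 239.6, 262 and 190.2 CPM in macrophages, and 7 of 10 tested were higher in microglia. Markers of ependyma and choroid plexus summed to 7745, 1599.9, 1545 and 4028 CPM in microglia and 65.7, 21 and 173 CPM in macrophages, and most of that was Ttr, the transthyretin gene of the choroid plexus, at 7455, 1491, 1519 and 3879 CPM in microglia and 51.2, 19.8 and 156 CPM in macrophages. Microglia replicates 1 and 5 were the highest (log2 fold change 5.65, SE 0.98, adjusted p = 0.00592), and without macrophage replicate 7 the log2 fold change was 6.71, and 4.98 without microglia replicate 1. Astrocyte markers summed to 306 to 474 CPM in microglia and 104 to 136 CPM in macrophages, with 2 of 4 tested called. The second of these, the glutamate transporter gene Slc1a3, lost its call without macrophage replicate 4 or any 1 microglia library (adjusted p up to 0.174), and its log2 fold change of 3.78 was 6.61 without macrophage replicate 2. Of 6 neuronal markers 1 was higher in microglia, or 2 without macrophage replicate 4, at 206 to 450.2 CPM against 89.4 to 264 CPM in sum. Of 3 erythroid and platelet markers 1 was higher in microglia, at 54.2 to 254 CPM against 0.169 to 14.8 CPM in sum. Oligodendrocyte markers summed to 559.97 to 794 CPM against 607 to 951 CPM, with 1 of 5 tested called in each direction, and Mbp, the myelin basic protein gene, was higher in macrophages, at 437, 346 and 682 CPM against 172, 34.8, 164 and 40.8 CPM in microglia (log2 fold change −2.18, SE 0.56, adjusted p = 0.0247). The part of these cells in the results below was not tested.

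**Figure D1:**
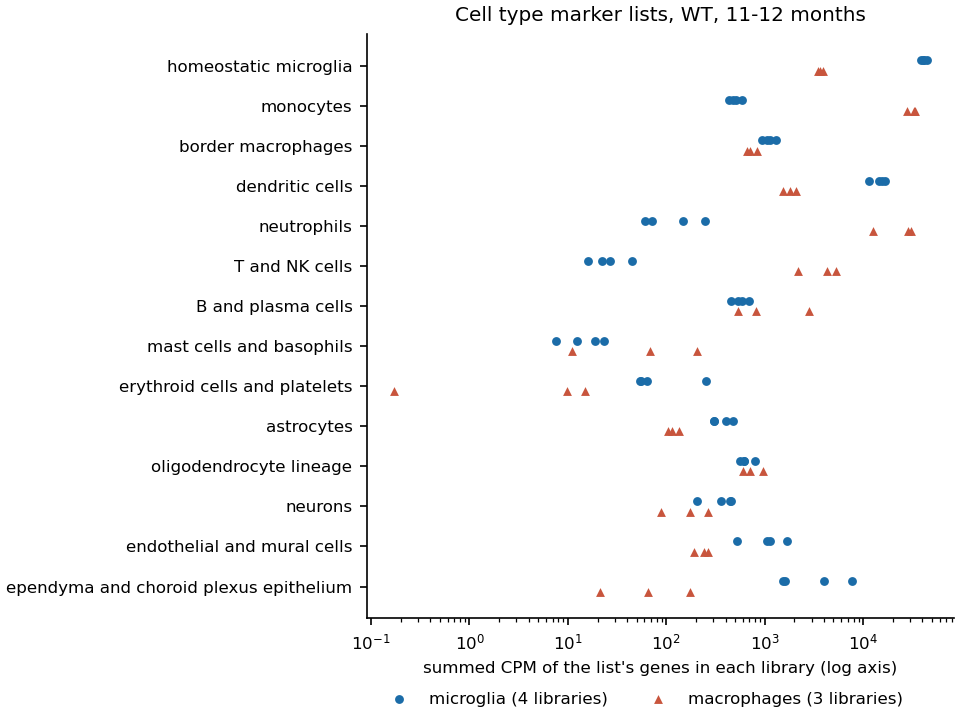
Summed CPM of each cell type marker list in each library, on a log axis, for 4 microglia libraries (circles) and 3 macrophage libraries (triangles) of WT mice at 11–12 months. Homeostatic microglia genes lie at 39229 to 44699 CPM in microglia and 3494 to 3944 CPM in macrophages, and the order is turned for monocyte, neutrophil and T and NK cell genes.

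Across the transcriptome, 853 of 8424 genes were higher in microglia and 972 in macrophages. Of the genes tested, 5429 were over the expression limit in both cell types, 1506 in microglia only and 1489 in macrophages only, and 455 of the 853 and 522 of the 972 called genes were among the 5429. Of the called genes, 419 and 464 differed by over 10-fold as fitted, and 207 and 274 lay at the floor in the other cell type. Genes called higher in microglia took 38.0% ± 0.839 (SD, n = 4) of the counts of microglia and 8.78% ± 0.555 (SD, n = 3) of those of macrophages. Genes called higher in macrophages took 35% ± 0.726 (SD, n = 3) of the macrophage counts and 8.64% ± 0.145 (SD, n = 4) of the microglia counts. The plot of mean levels shows the calls in both directions spread over the whole range of expression.

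**Figure D2:**
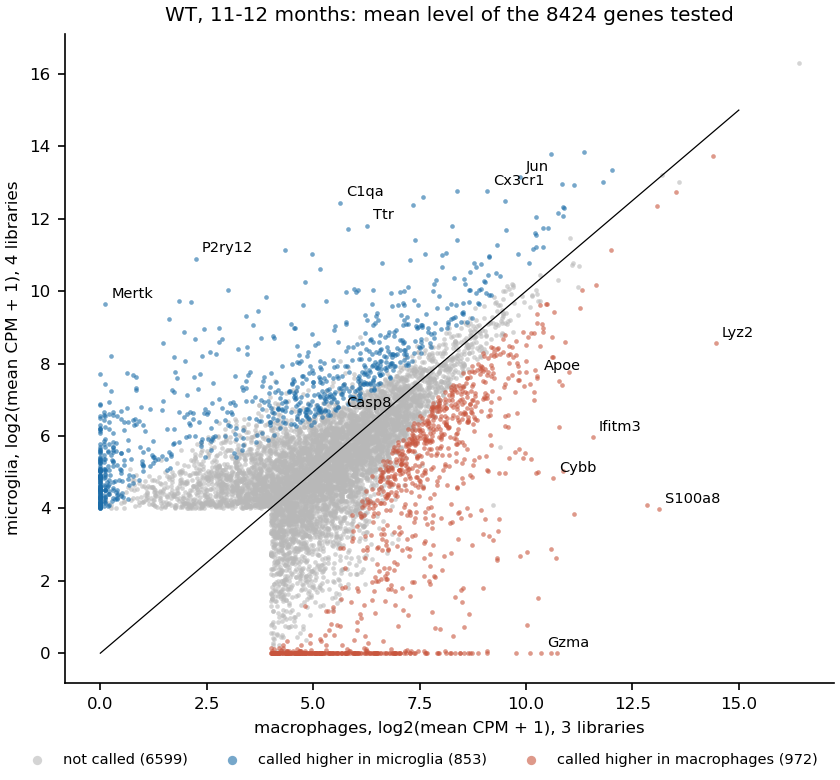
Mean level of each of the 8424 genes tested, as log2(mean CPM + 1) in macrophages (x axis, 3 libraries) and microglia (y axis, 4 libraries), with the 853 genes called higher in microglia in blue and the 972 called higher in macrophages in red. The line marks equal levels, and the called genes with no counts in the other cell type lie along the axes.

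Among the genes furthest apart in the direction of microglia were a phagocytic receptor and a transcriptional repressor. Mertk, a receptor tyrosine kinase that recognizes apoptotic cells through bridging ligands (ENSMUSG00000014361, chromosome 2 of GRCm38 from 128698956 to 128802894), was at 884, 789, 725 and 803 CPM in microglia and had at most 1 count in any macrophage library. It was at least 1273-fold higher in microglia (adjusted p = 9.11e-07 from edgeR). Sall3, a zinc finger repressor of the spalt family, was at 231, 181, 224 and 189.7 CPM in microglia with 0 counts in macrophages, at least 329-fold higher. Plxdc2, a membrane protein with a plexin domain, was at 394, 279, 226 and 279.7 CPM in microglia and at or under the floor in macrophages, at least 469-fold higher. Rab3il1, an exchange factor for Rab3 GTPases, was at 191, 148, 226 and 124 CPM and at least 274-fold higher. Gpr34, a receptor for lysophosphatidylserine, was at 804, 840.5, 893 and 832 CPM in microglia and 1.36, 5.97 and 0.44 CPM in macrophages, with macrophage replicate 4 the highest of the 3 (log2 fold change 8.44, SE 0.74, adjusted p = 5.00e-05). Without that library the log2 fold change was 9.85. Cxcl12 and Col15a1, a chemokine and a basement membrane collagen, were at 66.4 to 217 and 49.1 to 146 CPM in microglia and at most 0.339 and 0.717 CPM in macrophages. The endothelial and mural markers, at 524 to 1701 CPM in microglia, moved in the same direction, and their part in these levels was not tested.

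The homeostatic genes differed between the cell types by folds that ranged widely, from a few-fold for the CSF1 receptor to far larger for receptors of ADP. Cx3cr1, the fractalkine receptor, was at 7516, 6869.6, 6968 and 6512 CPM in microglia and 519, 478 and 619.6 CPM in macrophages. The libraries within a group were close, and the fold was 13.6 (log2 fold change 3.77, SE 0.16, adjusted p = 9.11e-07). Csf1r was at 3032, 3319.5, 2719.8 and 2899 CPM against 973, 852 and 1773 CPM, 2.64-fold higher in microglia, with the highest macrophage value in replicate 7 (adjusted p = 0.003). Tmem119, a membrane protein used to mark microglia, was at 1202, 1202, 1328 and 1158 CPM against 28.3, 15.3 and 37.6 CPM (log2 fold change 5.57, SE 0.35, adjusted p = 6.17e-06). Sparc, a secreted matrix glycoprotein, was at 3479, 2990.4, 3476 and 3549.9 CPM against 22.5, 81.7 and 61.6 CPM (log2 fold change 6.02, SE 0.43, adjusted p = 1.59e-05). Olfml3, a secreted olfactomedin domain protein, was at 722, 763, 700.4 and 611 CPM against 14.7, 17.9 and 3.52 CPM (log2 fold change 5.92, SE 0.54, adjusted p = 6.31e-05).

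Receptors and enzymes for extracellular nucleotides let microglial processes follow ADP and ATP. Of 11 purine receptor and ectonucleotidase genes tested, 6 were higher in microglia and 2 in macrophages, with a median log2 fold change of 2.87. Without any 1 microglia library, 5 were higher in microglia. The expression limit was passed in both cell types by 6 of the 11. P2ry12 was at 1706, 2217, 1785 and 1919 CPM in microglia and 0.339, 5.97 and 4.84 CPM in macrophages. Every macrophage library was far under every microglia library (log2 fold change 9.12, SE 0.77, adjusted p = 4.12e-05). P2ry13, a second ADP receptor, was at 2295, 2472, 2267 and 1888 CPM against 16.3, 34.4 and 6.6 CPM (log2 fold change 6.94, SE 0.55, adjusted p = 2.77e-05), and its log2 fold change was 7.65 without macrophage replicate 4. P2rx7, an ATP-gated channel, was at 336, 253, 187 and 251 CPM against 30.2, 29.6 and 51.1 CPM (log2 fold change 2.87, SE 0.36, adjusted p = 0.000424). P2ry6, a receptor for UDP, was at 153, 104, 152 and 199 CPM against 8.64, 35.4 and 6.82 CPM (log2 fold change 3.25, SE 0.65, adjusted p = 0.00671), or 4.37 without macrophage replicate 4. The microglia call of Adora3, an adenosine receptor, was lost without macrophage replicate 4 or any 1 microglia library (adjusted p from edgeR 0.113 to 0.17). Its log2 fold change of 2.95 was 3.66 without macrophage replicate 7. Entpd1, the ectonucleotidase CD39, overlapped between the groups (adjusted p = 0.124). In macrophages the called genes were P2ry10, a lysophospholipid receptor of lymphocytes, and Adora2a, an adenosine receptor of leukocytes, and both calls were lost without macrophage replicate 4. The call of Adora2a was also lost without macrophage replicate 7 (adjusted p = 0.122) or microglia replicate 1, and its log2 fold change of −6.02 was −8.74 without microglia replicate 3.

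**Figure D3:**
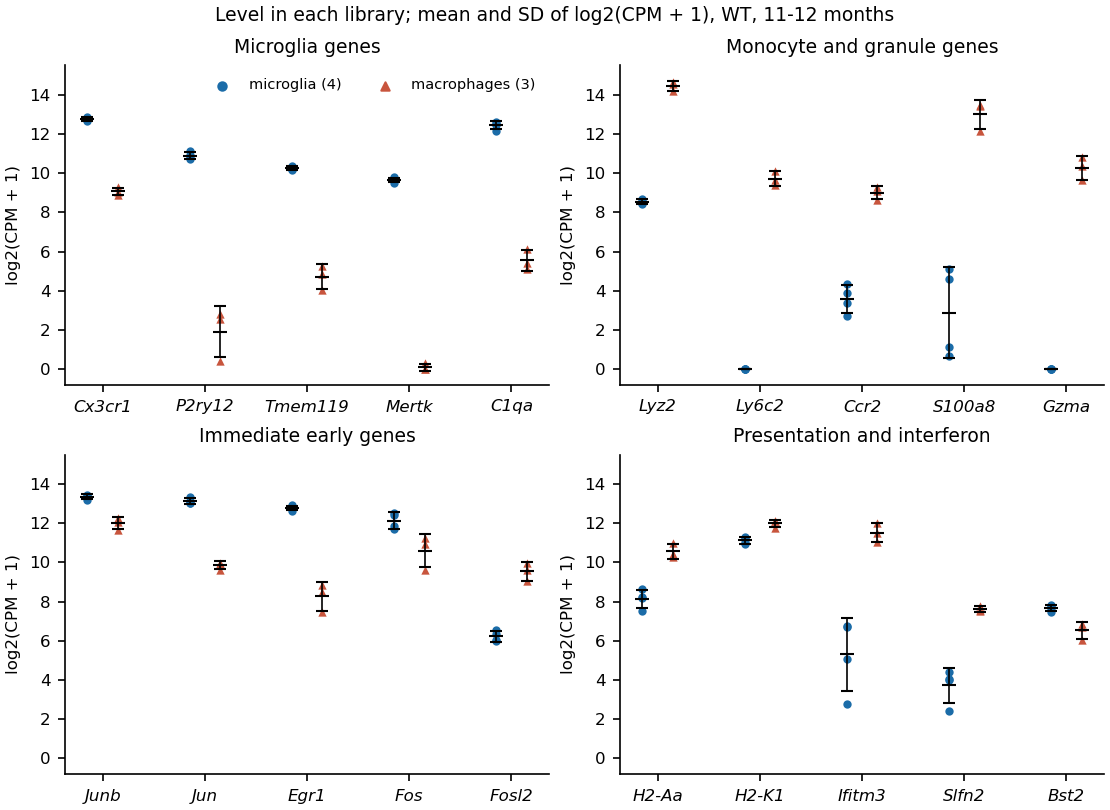
Level of 20 genes in each library as log2(CPM + 1), with the mean and SD of that scale as black bars, in 4 microglia (circles) and 3 macrophage libraries (triangles). The 5 microglia genes and the 5 monocyte and granule genes separate fully in opposite directions, Fosl2 stands against the other early genes and Bst2 against the other genes of its panel.

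In the direction of macrophages, the 12 genes with the largest fitted differences, among genes over 100 CPM on average in macrophages, all had 0 counts in the 4 microglia libraries, so their order depends on the prior count. Plac8, a small protein of myeloid and lymphoid cells (ENSMUSG00000029322, chromosome 5 of GRCm38 from 100553725 to 100572245), was at 1727, 2218 and 1139 CPM in macrophages, at least 2833-fold higher (adjusted p = 6.17e-06 from edgeR). Cd44, a hyaluronan receptor, was at 1018, 1333 and 918 CPM and at least 1822-fold higher. Ly6c2, the surface antigen of classical monocytes, was at 1121, 806 and 669 CPM and at least 1446-fold higher, with reads that may be shared with Ly6c1. Hp, the haptoglobin gene, was at 526, 412 and 695 CPM and at least 909.95-fold higher, with replicate 7 the highest. Emilin2, a matrix glycoprotein, was at 490.4, 397 and 515 CPM and at least 781-fold higher. Retnlg, Mmp8 and Gzmb, which are known from neutrophils and killer cells, were lowest in replicate 7, at 158, 207 and 61.2 CPM there. The neutrophil and the T and NK cell sums were lowest in that library too, and their part in these genes was not tested. Lyz2, the lysozyme gene of myeloid cells, was the most abundant of the monocyte list, at 416, 385, 346 and 351 CPM in microglia and 23804, 18366 and 25328 CPM in macrophages (log2 fold change −5.84, SE 0.17, adjusted p = 3.73e-08). Fn1, fibronectin, was at 41, 50.3, 67.8 and 4.01 CPM against 933, 637 and 739 CPM (log2 fold change −4.18, SE 0.68, adjusted p = 0.00201).

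Transcription factors of the myeloid lineage differed in both directions. Of 41 tested, 13 were higher in microglia and 8 in macrophages, with a median log2 fold change of 0.17. Spi1, which encodes the myeloid factor PU.1, was at 159, 181, 244 and 234 CPM in microglia and 651, 428 and 543 CPM in macrophages, 2.51-fold higher in macrophages (adjusted p = 0.00658). Cebpb, a factor of inflammatory and granulocytic gene programs, was at 32.1, 148, 80.0 and 120.2 CPM against 741, 651 and 325 CPM, with microglia replicate 1 the lowest (log2 fold change −2.52, SE 0.49, adjusted p = 0.00554). Klf13, a Krüppel-like factor, was 4.59-fold higher in macrophages (adjusted p = 0.00021), and Klf2 and Klf6, of the same family, were 1.73-fold and 2.08-fold higher in microglia (adjusted p = 0.0145 and 0.0107). Irf8, which microglia and monocytes both need, was at 1423, 871, 1347 and 951 CPM against 715, 940.5 and 846 CPM, with overlap (adjusted p = 0.146). Nr4a1, a factor of patrolling monocytes and an early response gene, ranged from 272 to 3823 CPM over the macrophage libraries, lowest in replicate 7, and from 324 to 1516 CPM in microglia (adjusted p = 0.474).

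Microglia require TGF-β signalling for their identity. Of 22 genes of the pathway tested, 8 were higher in microglia and 1 in macrophages, with a median log2 fold change of 1.5. Tgfbr1, the type I receptor, was at 553, 705, 574 and 726 CPM in microglia and 101, 124 and 37.2 CPM in macrophages. It was 7.66-fold higher in microglia (adjusted p = 0.000778). Itgb5, an integrin chain that can free TGF-β from its latent form, was at 1191, 945, 1044 and 875 CPM against 65.4, 98 and 25.5 CPM (log2 fold change 4.08, SE 0.44, adjusted p = 0.000155). Ski and Skil, which restrain SMAD signalling, were 3.84-fold and 5.17-fold higher in microglia (adjusted p = 0.000747 and 0.00487), and Skil was higher in macrophage replicate 7 than in the other macrophages, at 50.2, 108 and 240.1 CPM. Without replicate 7 the log2 fold change of Skil was 3.11 in place of 2.37. Nrros, which anchors latent TGF-β on microglia, overlapped between the groups, at 178 to 268 CPM in microglia and 231 to 371 CPM in macrophages (adjusted p = 0.289). Tgfbi, a TGF-β-induced matrix protein, was the gene higher in macrophages, at 43.5, 50.3, 0.184 and 27.6 CPM against 556, 692 and 743 CPM (log2 fold change −4.38, SE 1.02, adjusted p = 0.0189), and it was not called without the expression limit.

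Cytokine and growth factor genes separated interleukin 1α from interleukin 1β. Il1a was at 371, 522, 704 and 367 CPM in microglia and 0.339, 5.02 and 7.92 CPM in macrophages. All microglia libraries were above all macrophage libraries (log2 fold change 6.90, SE 0.82, adjusted p = 0.000298, or 7.68 without macrophage replicate 7). Il1b was at 125, 175, 362 and 242 CPM against 1014, 1429 and 1132 CPM, 4.98-fold higher in macrophages with no overlap (adjusted p = 0.00112). Il1rn, the IL-1 receptor antagonist, had at most 1 count in microglia and 23.7, 50.4 and 0.22 CPM in macrophages. Csf1, a ligand of Csf1r, was at 188, 172, 248 and 210.2 CPM against 72.3, 35.8 and 13.4 CPM (log2 fold change 2.39, SE 0.54, adjusted p = 0.013, or 3.15 without macrophage replicate 2). Of the 17 cytokine genes tested, 4 were called higher in microglia and 2 in macrophages, and without macrophage replicate 4 these counts were 2 and 1. Tnf and Pdgfb were the microglia calls lost there (adjusted p = 0.242 and 0.122). Both were also lost without microglia replicate 1, 3 or 5 (adjusted p from 0.104 to 0.228), Tnf without macrophage replicate 7, and Pdgfb without macrophage replicate 2 or microglia replicate 2. The log2 fold change of Tnf was 1.39 and 2.28 without macrophage replicate 2, and that of Pdgfb was 3.10 and 3.70 without macrophage replicate 4. Of 26 receptors for growth factors and cytokines, 6 were higher in microglia and 9 in macrophages. Il17ra, a receptor chain for IL-17, was at 159, 212, 123 and 164 CPM against 877, 872 and 1232 CPM, 5.74-fold higher in macrophages (adjusted p = 8.13e-05), and Tnfrsf1a, a TNF receptor, was 3.44-fold higher (adjusted p = 0.00088). Il21r, the IL-21 receptor, was 11.3-fold higher in microglia, at 133, 283, 158 and 147 CPM against 22.5, 21 and 6.16 CPM (adjusted p = 0.00186).

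Chemokines and the receptors for chemoattractants differed in both directions. Of 16 chemokine genes, 3 were higher in microglia and 4 in macrophages, or 5 and 4 without macrophage replicate 2. Ccl3, an inflammatory chemokine that binds CCR1, was at 1267, 1529, 1683 and 1462 CPM in microglia and 374, 640.1 and 218 CPM in macrophages (log2 fold change 1.93, SE 0.33, adjusted p = 0.0029). Ccl12, a ligand of CCR2, was at 167, 194, 251 and 172 CPM against 0, 2.39 and 0 CPM, with counts in 1 macrophage library only (replicate 4). Its log2 fold change of 8.08 was 7.45 without macrophage replicate 2 and 13 without replicate 4, where it has 0 counts in macrophages and the fitted value depends on the prior count. Ccl6 was 9.11-fold higher in macrophages, at 1688, 1666 and 1936 CPM against 189, 208, 157 and 182 CPM in microglia (adjusted p = 5.36e-06). Cxcl2, a neutrophil attractant, was 7.58-fold higher in macrophages, at 1431, 1712 and 343 CPM with the lowest value in replicate 7 (adjusted p = 0.00385). Of 19 chemoattractant receptors tested, 6 were higher in microglia and 9 in macrophages. The expression limit was passed in both cell types by 9 of the 19. Cxcr2, a chemokine receptor of neutrophils, was at 101, 159 and 8.8 CPM in macrophages with 0 counts in microglia. Cxcr4, a receptor for CXCL12, was at 179, 182 and 67.6 CPM in macrophages, with at most 1 count in a microglia library. C3ar1, which binds the C3 cleavage product C3a, was at 289, 357, 540.1 and 338 CPM against 7.12, 16.5 and 77.7 CPM (log2 fold change 3.59, SE 0.73, adjusted p = 0.00715, or 5.10 without macrophage replicate 7). Cmklr1, the chemerin receptor, was 6.22-fold higher in microglia (adjusted p = 0.000294). In integrins and adhesion genes the calls were even, with 9 higher in microglia and 10 in macrophages of 24. Itgb2, the chain that pairs with CD11b, was 2.3-fold higher in macrophages, and Cd81, a tetraspanin, was 18.3-fold higher in microglia (adjusted p = 0.0135 and 0.000408). The log2 fold change of Cd81 was 4.19, or 4.81 without macrophage replicate 2.

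Genes of the first component of complement were higher in microglia, and C3 was higher in macrophages. C1qa, C1qb and C1qc encode the 3 chains of C1q, which starts the classical pathway and marks synapses for removal. C1qa (ENSMUSG00000036887, chromosome 4 of GRCm38 from 136895917 to 136898803) was at 5568, 6277, 5904 and 4564 CPM in microglia and 42.2, 69.8 and 33.5 CPM in macrophages. It was 121-fold higher in microglia with no overlap (log2 fold change 6.92, SE 0.32, adjusted p = 1.25e-06). C1qb was 71.4-fold higher, at 2178, 2156, 2162 and 1758 CPM against 19.5, 25.3 and 46.9 CPM, and C1qc was 34.7-fold higher, at 5822, 4425, 5657 and 5485 CPM against 157, 120.4 and 211 CPM (adjusted p = 4.88e-06 and 1.99e-06). C3, the central component, had counts in microglia replicate 3 only, at 0, 0, 7.74 and 0 CPM, and was at 331, 202 and 436 CPM in macrophages (log2 fold change −7.26, SE 1.46, adjusted p = 0.00896). Without microglia replicate 3 its fitted log2 fold change was −13.62, a value that depends on the prior count since the other microglia have 0 counts. Of 13 complement genes tested, 6 were higher in microglia and 4 in macrophages.

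Phagocytic receptors were divided between the cell types, 5 higher in each of 19 tested. Gas6, the bridging ligand of Mertk, was at 748, 785, 1036 and 760.3 CPM in microglia and 0.339, 3.35 and 6.38 CPM in macrophages (log2 fold change 8.06, SE 0.76, adjusted p = 7.26e-05, or 8.99 without macrophage replicate 7). The ligand and its receptor were both higher in microglia. Stab1, a scavenger receptor, was at 118, 158, 156 and 152 CPM against 0.508, 6.45 and 0 CPM (log2 fold change 6.08, SE 1.15, adjusted p = 0.00495, or 8.98 without macrophage replicate 4). Lrp1, a receptor for lipoproteins and debris, was 2.43-fold higher in microglia (adjusted p = 0.00076). Rac2, a GTPase of leukocytes, was 7.68-fold higher in macrophages, at 860.2, 672 and 755 CPM against 133, 92.5, 68.9 and 84.1 CPM, whereas Rac1 overlapped between the groups (adjusted p = 6.36e-05 and 0.245).

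Lysosomal genes leaned to microglia, with 13 of 32 higher there, 3 higher in macrophages and a median log2 fold change of 0.61. Without macrophage replicate 7 the calls were 16 and 3. Ctsd, an aspartic protease, was at 1856, 2338, 2033 and 1994 CPM in microglia and 314, 293 and 169 CPM in macrophages. It was 8.3-fold higher in microglia (adjusted p = 4.12e-05). Ctss, the cathepsin that trims the invariant chain, was at 7420.5, 7693, 8044 and 8137 CPM against 1910.1, 2314 and 2432 CPM, 3.72-fold higher (adjusted p = 1.91e-05). Cst3, which encodes the cathepsin inhibitor cystatin C, had some of the highest counts of any named gene, at 10911, 16070, 15115 and 13966 CPM against 1553, 1823 and 1240 CPM (log2 fold change 3.26, SE 0.20, adjusted p = 6.17e-06). Laptm5, a lysosomal membrane protein of leukocytes, differed by less than the fold limit (log2 fold change 0.51, adjusted p = 0.0442). The lysosomal genes higher in macrophages were Lyz2, Lyz1 and Ctse, of which Lyz1 had at most 1 count in microglia and may share reads with Lyz2. The call of Ctse was lost without macrophage replicate 2 (adjusted p = 0.15) or 4 and without microglia replicate 1, 3 or 5, and its log2 fold change of −6.47 was −9.49 without microglia replicate 2.

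Genes known from disease-associated microglia were called in both directions, 10 higher in each cell type of 29 tested, with a median log2 fold change of −0.28. Apoe, the main lipid carrier of the brain, was at 164, 225, 206 and 206 CPM in microglia and 1248, 746 and 1693 CPM in macrophages. It was 5.82-fold higher in macrophages, with no overlap (adjusted p = 0.000175). Trem2, the lipid-sensing receptor that this program needs, was at 1159, 1057, 1049 and 931 CPM against 27.6, 70.7 and 99 CPM, 16.9-fold higher in microglia (adjusted p = 9.32e-05). Tyrobp, the adaptor through which TREM2 signals, was 2.23-fold higher in macrophages, at 2033, 1344 and 1429.5 CPM against 812, 601, 725 and 609 CPM (adjusted p = 0.00435). The receptor and its adaptor differed in opposite directions. Cd63, a tetraspanin of late endosomes, and Timp2, a metalloprotease inhibitor, were 7.03-fold and 7.79-fold higher in microglia (adjusted p = 0.000107 and 2.87e-05). Itgax, which encodes CD11c and whose promoter drives Cre in the other genotype, was at 1.86, 3.75, 0.737 and 7.07 CPM in microglia and 90.8, 106 and 109.6 CPM in macrophages (log2 fold change −4.83, SE 0.84, adjusted p = 0.00294). No microglia library came near the macrophage libraries, and without microglia replicate 5 the log2 fold change was −5.55.

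Genes of MHC class II presentation were higher in macrophages in 6 of 12 tested and higher in microglia in 2, with a median log2 fold change of −1.77. H2-Aa, an MHC class II α chain, was at 182, 295, 287 and 394 CPM in microglia and 1233, 1390.4 and 2062 CPM in macrophages. It was 5.07-fold higher in macrophages, highest in replicate 7 (adjusted p = 0.000381). H2-Eb1 and H2-Ab1, the β chains, were 10.2-fold and 5.51-fold higher (adjusted p = 8.74e-05 and 0.000107). Cd74, the invariant chain, was at 0.207, 112, 54.7 and 27.8 CPM against 828, 767 and 1138 CPM, with wide spread in microglia (log2 fold change −4.16, SE 1.17, adjusted p = 0.0464), and its call was lost without macrophage replicate 7 (adjusted p = 0.133). Without microglia replicate 2 the log2 fold change of Cd74 was −4.98. The 2 genes higher in microglia were Ctss and Cd86, a costimulatory ligand at 218, 173, 194 and 118 CPM against 66.6, 63.8 and 93.1 CPM (adjusted p = 0.0238). Without macrophage replicate 2 there were 4 such genes. For MHC class I, 8 of 17 genes were higher in macrophages and 0 in microglia. Without microglia replicate 3, 5 were higher in macrophages and 0 in microglia. H2-K1 and H2-D1, the classical heavy chains, were 1.73-fold and 2.32-fold higher (adjusted p = 0.00645 and 0.00439), while B2m, their light chain, had an adjusted p of 0.0495 and a log2 fold change of −0.48, under the fold limit. Genes of the H2 family share sequence, so their counts are uncertain.

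Type I interferon response genes were higher in macrophages in 11 of 25 tested and in microglia in 1, with a median log2 fold change of −2.46. Among the 25 interferon genes, 13 were over the expression limit in both cell types. Their 30 listed genes summed to 892, 861, 878 and 690.1 CPM in microglia and 5441, 4869 and 7100.3 CPM in macrophages. Ifitm3, which blocks entry of virus at endosomes, was at 102, 32.1, 108 and 5.89 CPM in microglia and 2904, 2076 and 4111 CPM in macrophages. The microglia libraries were spread widely and none reached a macrophage library (log2 fold change −5.55, SE 0.87, adjusted p = 0.00318). Sp100, a nuclear body protein, was 10.6-fold higher in macrophages and Slfn2, a regulator of immune cell quiescence, 13.3-fold higher (adjusted p = 0.000747 and 0.000883). Bst2, tetherin, which holds budding virus at the membrane, was the gene higher in microglia, at 216, 226, 178 and 198 CPM against 103, 64.8 and 116 CPM (adjusted p = 0.0267). Trim30a overlapped between the groups (adjusted p = 0.602).

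The promoters of Ifitm3 and Bst2 are shown because the 2 genes of this list differed in opposite directions while both hold the letters of the interferon-stimulated response element (ISRE), searched on both strands as GAAA and GAAA set apart by 2 bases of any kind. The windows are from RefSeq on GRCm38.p6, 300 bases around the annotated start, written 5′ to 3′ along the gene, with matches in capitals. Ifitm3 is at chr7:141010695-141010994 on the minus strand with 2 matches, and Bst2 at chr8:71537423-71537722 on the minus strand with 2 overlapping matches.
Ifitm3: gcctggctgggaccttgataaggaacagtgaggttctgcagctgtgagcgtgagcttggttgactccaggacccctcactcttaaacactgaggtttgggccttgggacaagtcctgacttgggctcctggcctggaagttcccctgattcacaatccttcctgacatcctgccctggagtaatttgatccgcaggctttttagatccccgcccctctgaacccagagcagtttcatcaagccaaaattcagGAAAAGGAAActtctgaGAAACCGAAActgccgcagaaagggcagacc
Bst2: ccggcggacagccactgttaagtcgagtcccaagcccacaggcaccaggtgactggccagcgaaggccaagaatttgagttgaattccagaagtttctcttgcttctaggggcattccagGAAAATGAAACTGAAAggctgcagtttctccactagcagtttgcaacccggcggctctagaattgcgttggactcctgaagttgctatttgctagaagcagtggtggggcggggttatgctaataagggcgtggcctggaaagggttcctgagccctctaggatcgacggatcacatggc
Of the 26 windows found for 22 of the 30 interferon genes, 57.7% held the motif, against 3.44% of all 32851 windows, 3.27% of those of genes tested, 4.23% of the windows of genes higher in macrophages and 2.84% of those of genes higher in microglia. A match is a description of letters and not of a bound site.

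The promoters of S100a8 and Ctss are shown for the same contrast with PU.1, the factor encoded by Spi1, searched as GAGGAAGT on both strands. S100a8 was higher in macrophages and Ctss in microglia, and each window holds 1 match on the opposite strand. S100a8 is at chr3:90668821-90669120 and Ctss at chr3:95526536-95526835, both on the plus strand of GRCm38.p6.
S100a8: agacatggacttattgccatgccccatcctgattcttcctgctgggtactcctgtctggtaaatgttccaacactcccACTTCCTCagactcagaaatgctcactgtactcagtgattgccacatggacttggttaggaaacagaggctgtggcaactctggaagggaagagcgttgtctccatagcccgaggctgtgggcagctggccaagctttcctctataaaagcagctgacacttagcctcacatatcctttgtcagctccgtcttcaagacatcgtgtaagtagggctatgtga
Ctss: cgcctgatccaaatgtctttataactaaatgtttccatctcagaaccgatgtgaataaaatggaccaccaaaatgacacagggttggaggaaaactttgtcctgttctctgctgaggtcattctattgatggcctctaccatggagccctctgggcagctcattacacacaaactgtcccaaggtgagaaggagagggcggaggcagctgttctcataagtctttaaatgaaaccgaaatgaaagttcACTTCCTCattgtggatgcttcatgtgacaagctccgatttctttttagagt
The motif was found in 3.2% of all windows, 3.63% of those of genes tested, 6.41% of those of genes higher in macrophages and 3.72% of those of genes higher in microglia. Windows were found for 714 of 972 macrophage genes and 658 of 853 microglia genes. Of 20 windows for the neutrophil list, 6 held it.

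Pattern recognition genes were called in both directions, 6 higher in microglia and 5 in macrophages of 28. Tmem173, which encodes the cytosolic DNA signalling adaptor STING, was at 345, 387, 294 and 229 CPM in microglia and 70.8, 81.5 and 52.2 CPM in macrophages, 4.81-fold higher in microglia (adjusted p = 0.000686). Unc93b1, which carries nucleic acid-sensing Toll-like receptors to endosomes, was 2.74-fold higher in microglia (adjusted p = 0.00727). Clec4e, the lectin Mincle, had 0 counts in microglia and 188, 319 and 376 CPM in macrophages, at least 492-fold higher. Cd14, the coreceptor for lipopolysaccharide, and Tlr2 overlapped between the groups (adjusted p = 0.734 and 0.679). Among 25 Fc receptors, Siglecs and paired receptors, 7 were higher in microglia and 10 in macrophages. Sirpa, which receives the CD47 signal against engulfment, was at 1752, 1795, 1710.4 and 1606 CPM against 577, 444 and 461 CPM, 3.64-fold higher in microglia, and Lair1, a collagen receptor, was 6.31-fold higher (adjusted p = 9.32e-05 and 0.000109). Fcgr3, the low-affinity IgG receptor, was 4.65-fold higher in microglia, whereas Fcer1g, its signalling chain, was 1.77-fold higher in macrophages (adjusted p = 0.000693 and 0.0124).

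**Figure D4:**
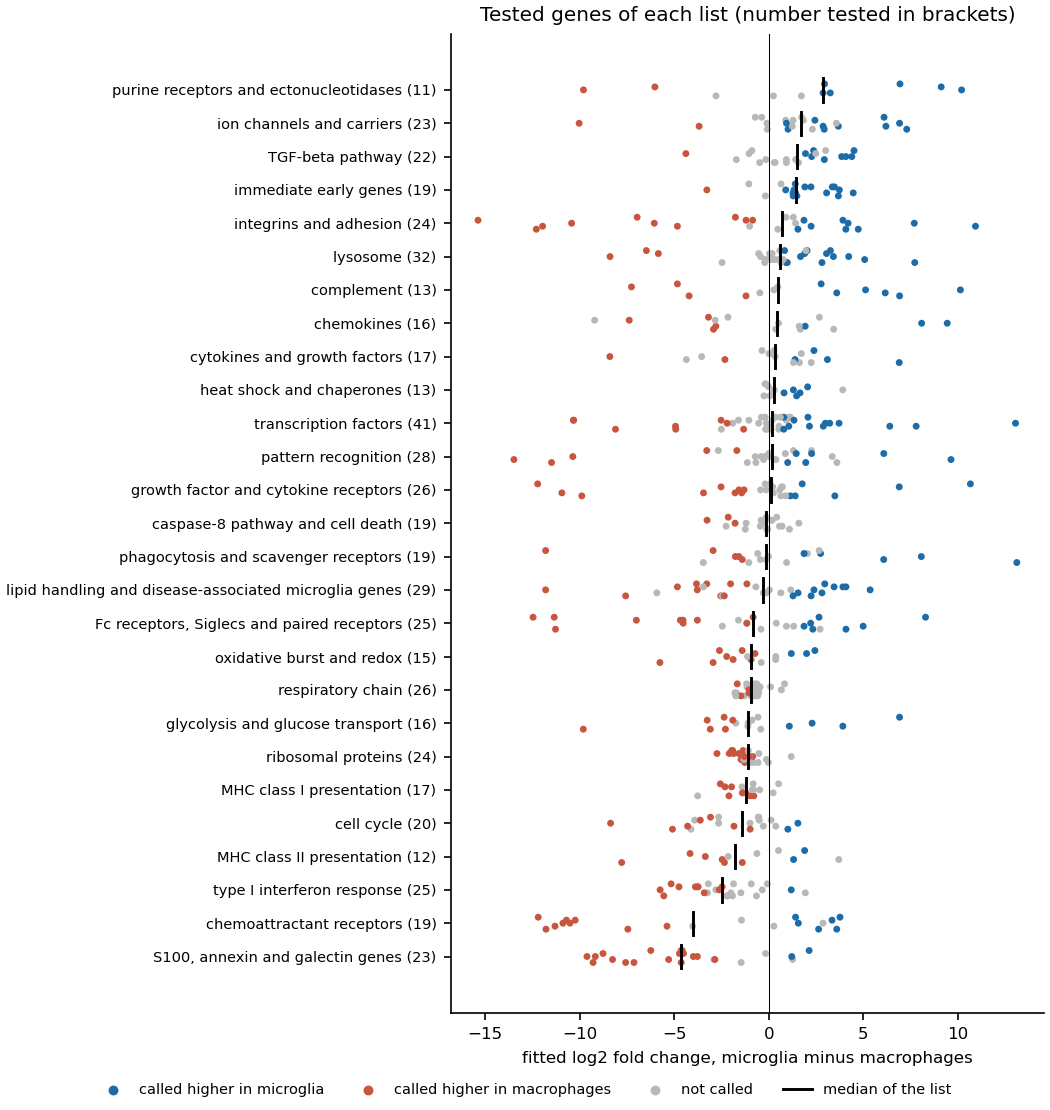
Fitted log2 fold change of microglia over macrophages for each tested gene of the 27 pathway lists, coloured by call, with the median of each list as a black line. Medians run from −4.63 for the S100, annexin and galectin genes to 2.87 for the purine receptors, and genes at the floor in a cell type sit at fitted values that depend on the prior count.

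S100, annexin and galectin genes were the pathway list furthest towards macrophages, with 17 of 23 higher there and 2 higher in microglia. The expression limit was passed in both cell types by 12 of the 23, so part of this count was favoured by the filter. S100a6, a calcium-binding protein of migrating cells, was at 4.76, 9.55, 5.53 and 0.707 CPM in microglia and 1896, 1653 and 1435 CPM in macrophages. The microglia libraries were all far under the macrophage libraries (log2 fold change −8.26, SE 0.63, adjusted p = 1.98e-05). S100a4, a related protein, was at 0, 0.171, 3.32 and 4.01 CPM against 1198, 856 and 1653 CPM (log2 fold change −9.29, SE 1.03, adjusted p = 0.000308, or −9.98 without microglia replicate 5). Vim, the intermediate filament vimentin, was at 41.6, 66.4, 9.95 and 42.9 CPM against 1376, 975 and 968 CPM, and Ahnak, a large scaffold protein, at 57.8, 53.9, 8.29 and 3.3 CPM against 1307, 1384 and 1054 CPM, 26.3-fold and 39.2-fold higher in macrophages (adjusted p = 0.000193 and 0.00302). Anxa3 and Lgals9, an annexin and a galectin, were higher in microglia, 4.39-fold and 2.32-fold (adjusted p = 0.000958 and 0.0224).

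Among 15 genes of the oxidative burst and redox balance, 8 were higher in macrophages and 3 in microglia. Cybb, the catalytic subunit of the phagocyte NADPH oxidase, was at 27.7, 29.2, 10.9 and 42.9 CPM in microglia and 1322, 1552 and 1876 CPM in macrophages. The groups were far apart (log2 fold change −5.75, SE 0.43, adjusted p = 1.91e-05). Prdx5 and Gpx1, which remove peroxides, were 4.67-fold and 2.65-fold higher in macrophages (adjusted p = 0.000153 and 0.00605). Hmox1, haem oxygenase 1, was 2.28-fold higher in microglia (adjusted p = 0.0361), a call lost without microglia replicate 3 (adjusted p = 0.125). Cybb was highest in replicate 7, where the neutrophil sum was lowest, and the part of neutrophils in its level was not tested.

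Genes of energy supply were called in both directions in glycolysis and glucose transport, with 6 of 16 higher in macrophages and 4 in microglia. Pkm, pyruvate kinase, was at 97.3, 86, 88.4 and 71.6 CPM in microglia and 586, 330.2 and 468 CPM in macrophages, 5.13-fold higher (adjusted p = 0.000275), while Hk2, hexokinase 2, was 2.13-fold higher in microglia (adjusted p = 0.0118). Slc2a5, the fructose transporter that marks microglia, was at 419, 459, 404 and 340.4 CPM against 0.169, 10.8 and 0 CPM (log2 fold change 6.92, SE 1.31, adjusted p = 0.00651), with the counts in macrophages almost all from replicate 4. Without macrophage replicate 4 the fitted value was 11.79, and without replicate 2 it was 6.33. In the respiratory chain, 4 of 26 were higher in macrophages and 0 in microglia at a median of −0.95, or 2 and 0 without macrophage replicate 2, which is near the 11.5% of all genes tested. Of 24 ribosomal protein genes, 13 were higher in macrophages and 0 in microglia, with a median log2 fold change of −1.10. Rps9 was at 299, 253, 259 and 249.5 CPM against 982, 798 and 1267 CPM (log2 fold change −1.86, SE 0.21, adjusted p = 0.000225), and Rplp1 overlapped (adjusted p = 0.734). Ribosomal protein genes have many pseudogenes, so their counts are uncertain.

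Cell cycle genes were higher in macrophages in 7 of 20 and in microglia in 2, or in 4 and 1 of 19 without macrophage replicate 7. Ccnd2 and Ccnd3, D-type cyclins, were 12.3-fold and 8.45-fold higher in macrophages (adjusted p = 0.000838 and 0.00667), and the log2 fold change of Ccnd3 was −3.08, or −3.81 without microglia replicate 1. Ccnd1, the third of them, was 2.91-fold higher in microglia (adjusted p = 0.0463), a call lost without microglia replicate 2 or 3 (adjusted p = 0.128 and 0.107), and its log2 fold change of 1.54 was 2.21 without macrophage replicate 4. Without either of these the list had 0 genes higher in microglia. Cdkn1b, the cell cycle inhibitor p27, was 3.58-fold higher in macrophages, at 368, 607 and 402 CPM against 129.8, 121, 96.6 and 138 CPM (adjusted p = 0.00115). Of 23 ion channel and carrier genes, 10 were higher in microglia and 2 in macrophages, with a median of 1.73. Slco2b1, an organic anion carrier, was at 971, 1145, 1087 and 987 CPM against 4.91, 16 and 0.22 CPM (log2 fold change 7.30, SE 1.00, adjusted p = 0.00105, or 8.65 without macrophage replicate 4). Slc29a3, a nucleoside carrier of lysosomes, was at 362, 293, 297 and 258 CPM against 37.3, 23.7 and 12.8 CPM (log2 fold change 3.68, SE 0.43, adjusted p = 0.000247).

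Immediate early genes, which are induced within minutes by many stimuli including tissue dissociation, were higher in microglia in 15 of 19 tested and in macrophages in 1. Their 20 genes summed to 57574, 65401, 64819 and 67558 CPM in microglia and 21736, 24622 and 16231 CPM in macrophages. Jun was at 8345, 10272, 8469 and 8973 CPM in microglia and 976, 1015 and 779.8 CPM in macrophages. It was 10.2-fold higher with no overlap (adjusted p = 2.35e-06). Egr1, a zinc finger factor, was at 6310.1, 7692, 6915 and 6979 CPM against 356, 462 and 175 CPM (log2 fold change 4.47, SE 0.33, adjusted p = 1.84e-05), and Ier5, an early response gene, at 5827, 5587, 6528 and 5095 CPM against 575, 612 and 1004 CPM (log2 fold change 3.06, SE 0.22, adjusted p = 1.59e-05). Junb and Fos were 2.65-fold and 2.8-fold higher in microglia (adjusted p = 0.000384 and 0.0201), and Fos was not called without the expression limit. Fosl2, another AP-1 member, was the gene higher in macrophages, at 64.2, 62.6, 93.4 and 79.6 CPM against 525, 776 and 1004 CPM (log2 fold change −3.27, SE 0.29, adjusted p = 4.88e-05). Both gates came from brains that were digested in the same way, and the part of the dissociation was not tested. Heat shock and chaperone genes were higher in microglia in 5 of 13 and in macrophages in 0. Without microglia replicate 5, 3 were higher in microglia and 0 in macrophages. Hspa5, the chaperone of the endoplasmic reticulum, was 2.47-fold higher and Dnajb1, a cochaperone, 4.16-fold higher (adjusted p = 0.00232 and 0.00114), whereas Hspa8, an abundant cytosolic chaperone, overlapped between the groups (adjusted p = 0.995).

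The floxed gene itself was present in both cell types. Casp8, the initiator caspase of death receptor signalling, was at 134, 73.9, 96.6 and 88.1 CPM in microglia and 36.3, 64.3 and 44.9 CPM in macrophages. The groups did not overlap, and the difference missed the threshold in edgeR (log2 fold change 1.09, SE 0.43, adjusted p = 0.126). DESeq2 called it, with a log2 fold change of 1.10. Of 19 genes of the caspase-8 pathway and cell death, 3 were higher in macrophages and 0 in microglia. Their median log2 fold change was −0.13, and the count is near the 11.5% of all genes tested that were called higher in macrophages. Cflar, which encodes the caspase-8 regulator c-FLIP, and Xiap, a caspase inhibitor, overlapped between the groups (adjusted p = 0.246 and 0.923). Bcl2, which blocks apoptosis, was at 0.207, 24.6, 25.8 and 15.6 CPM against 102, 206 and 196 CPM (log2 fold change −3.26, SE 0.95, adjusted p = 0.0409), and its call was lost without macrophage replicate 4 (adjusted p = 0.108).

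Whether the difference between the cell types was the same in other mice was tested as an interaction over all 28 libraries with edgeR. It differed between WT mice of 11–12 and 5–6 months in 13 of 9223 genes (0.141%) and between WT and CReCOM mice of 11–12 months in 18 of 9308 genes (0.193%). At an unadjusted p under 0.05 there were 607 and 836 genes. DESeq2 called 237 and 290. Both tests share the 7 WT libraries of 11–12 months, so they are not independent, and a positive difference means that microglia exceeded macrophages by more in these 7 libraries.

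Several of these were genes of microglia whose level differed in the macrophage gate. For P2ry12 the microglia of WT and CReCOM mice of 11–12 months did not overlap either. C1qa was at 42.2, 69.8 and 33.5 CPM in the WT macrophages of 11–12 months, at 141, 310.2 and 400.03 CPM in those of 5–6 months and at 444, 435 and 378 CPM in CReCOM macrophages of 11–12 months. The microglia were at 4564 to 6277 CPM here and overlapped those of WT mice of 5–6 months, at 5289, 6001, 5472 and 5786 CPM. They also overlapped CReCOM microglia of 11–12 months, at 5248 to 9591 CPM. The gap between the cell types was wider than at 5–6 months (difference 2.51, SE 0.37, adjusted p = 0.00222 on the log2 scale) and wider than in CReCOM mice (difference 2.61, SE 0.37, adjusted p = 0.000536). P2ry12 was also lowest here, with 0.339, 5.97 and 4.84 CPM in these macrophages, 58.8, 121 and 72.3 CPM in WT macrophages of 5–6 months and 19.9, 23.9 and 83.5 CPM in CReCOM macrophages (difference 4.37, SE 0.90, adjusted p = 0.0699 for age and difference 4.31, SE 0.90, adjusted p = 0.0684 for genotype). In microglia P2ry12 was at 1706 to 2217 CPM here, 1947.5 to 2422 CPM in WT mice of 5–6 months and 897 to 1519 CPM in CReCOM mice. Rab3il1 was at 0, 0.239 and 0 CPM in these macrophages and 32.7, 13.2 and 42.7 CPM in CReCOM macrophages (difference 7.81, SE 1.04, adjusted p = 7.64e-05). Its levels overlapped in microglia, at 124 to 226 CPM here and 138 to 373 CPM in CReCOM mice. The homeostatic markers summed to 3494 to 3944 CPM in these macrophages, 3985 to 5169 CPM in WT macrophages of 5–6 months and 3530 to 5516 CPM in CReCOM macrophages of 11–12 months, and their part was not tested. The sums of other marker lists also differed across these macrophage groups. Neutrophil markers summed to 12568 to 30565 CPM here, 7030.4 to 10861 CPM in WT macrophages of 5–6 months and 3463 to 10723 CPM in CReCOM macrophages, and T and NK cell markers to 2193 to 5327, 2823 to 3302 and 246 to 777 CPM, and their part was not tested either. The call of C1qa was made under 19 of 21 alternatives for each contrast, and voom on 28 libraries, with and without the mouse as a block, did not make it (adjusted p up to 0.666 for age). P2ry12 was called under 7 of 21 for age and 11 of 21 for genotype.

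**Figure D5:**
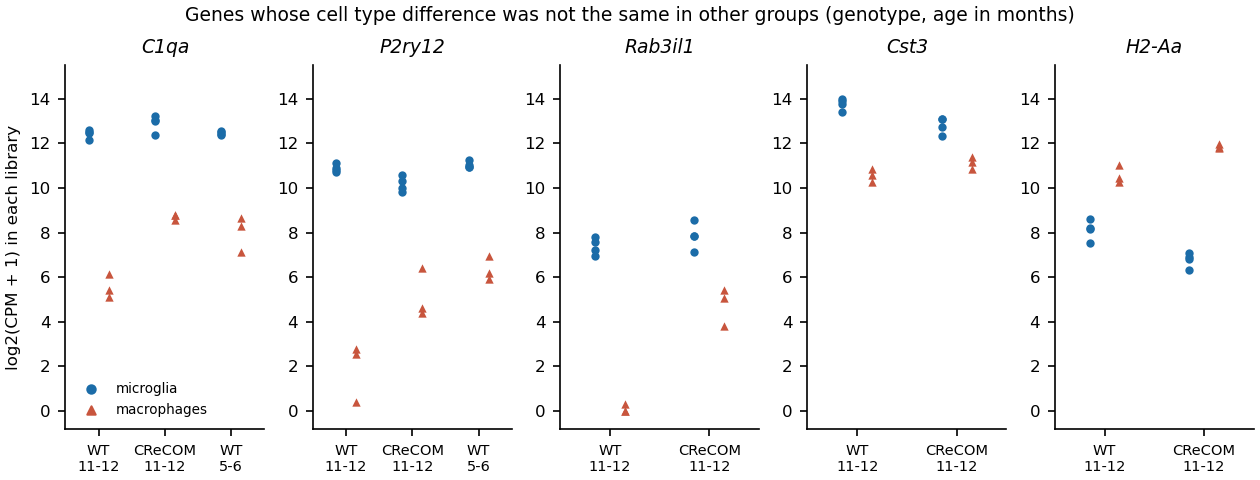
Level of 5 genes in each library as log2(CPM + 1) by genotype and age in months, for microglia (circles) and macrophages (triangles). C1qa and P2ry12 are lowest in the WT macrophages of 11–12 months. P2ry12, Cst3 and H2-Aa do not overlap between the genotypes in either cell type, and groups of 5–6 months are drawn where the gene was called for age.

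Between the genotypes, the levels of Cst3 and H2-Aa, like those of P2ry12, did not overlap in either cell type, which was not tested for each cell type alone. Cst3 was at 8799.8, 5158, 6859 and 8678 CPM in CReCOM microglia and 2716, 2287 and 1838 CPM in CReCOM macrophages, every microglia value lower than in the 4 WT libraries (difference 1.5, SE 0.25, adjusted p = 0.00333), a call lost in voom without the block (adjusted p = 0.103). H2-Aa was at 136, 77.9, 121 and 111 CPM in CReCOM microglia and 3629.9, 4062 and 3491 CPM in CReCOM macrophages, and the excess in macrophages was smaller in WT mice (difference 2.66, SE 0.45, adjusted p = 0.00412). The interferon genes beside it summed to 9856 to 10383 CPM in CReCOM macrophages and 4869 to 7100.3 CPM in WT macrophages. Lmo2, a transcriptional cofactor, was at 26.8, 28.2 and 38.3 CPM in WT and 70.3, 107 and 116 CPM in CReCOM macrophages (difference 2.46, SE 0.53, adjusted p = 0.0495), a call kept in 14 of 21 alternatives. In microglia Lmo2 was at 170 to 252 CPM in WT mice and 80.4 to 192 CPM in CReCOM mice, so both cell types enter its difference.

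Some genes were detected in these macrophages and at or near the floor in those they were set against. Zfp839, a zinc finger gene, was at 59.1, 29.4 and 21.8 CPM in these macrophages and 0.494, 0.216 and 0 CPM at 5–6 months, and Prkab1, a subunit of the energy sensor AMPK, at 67.3, 29.9 and 36.8 CPM here and 0.761, 0.307 and 0.477 CPM in CReCOM macrophages. Zfp839 had a difference of −8.36, SE 1.5, adjusted p = 0.0131 for age, and Prkab1 a difference of −5.81, SE 1.16, adjusted p = 0.0233 for genotype. In microglia Zfp839 was spread widely, at 2.9, 47.6, 3.87 and 33.9 CPM here and 37.4 to 59.3 CPM at 5–6 months. Prkab1 was at 78 to 135 CPM in microglia here and 20.3 to 104 CPM in CReCOM microglia. The call of Prkab1 was lost in voom with and without the mouse as a block (adjusted p up to 0.175). In the opposite direction, Ly6c1, a surface antigen of endothelial cells and monocytes, was at 1.36, 1.19 and 0.22 CPM in these macrophages and 16.8, 24.2 and 34.2 CPM at 5–6 months (difference 5.2, SE 1.02, adjusted p = 0.0228), and it may share reads with Ly6c2. The call of Ly6c1 was lost in voom with and without the mouse as a block (adjusted p up to 0.616). Vcam1, an adhesion molecule of vessels, was at 0, 0.717 and 0 CPM here and 0.247, 17.3 and 57.4 CPM at 5–6 months, and its call was lost in both voom fits and without macrophage replicate 2 of these mice (adjusted p up to 0.389). Endothelial and mural markers summed to 190.2 to 262 CPM in these macrophages and 145 to 440.3 CPM in those of 5–6 months.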

How the data were processed

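The authors demultiplexed reads with bcl2fastq, trimmed them with bbduk, aligned them to GRCm38 (mm10) with STAR and counted them per gene with HTSeq, and deposited raw counts and CPM tables. Tool versions, the annotation release and the strand setting are not given in the sources used here, so reads of overlapping antisense genes cannot be told apart. The deposited counts entered the tests and the deposited CPM the levels, with no further scaling. Genes with log2(mean CPM + 1) over 4 in either group were fitted with edgeR 4.0.16 in R 4.3.3 (TMM, quasi-likelihood F-test, robust, Benjamini-Hochberg). Interactions were fitted over 28 libraries with a mean per group. SE values were taken as the size of the log2 fold change over the square root of F. Bounds use a floor of 3 counts in each library. P-values cover the spread between mice.

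The members and the 41 gene lists were chosen with earlier results of these data known. Named genes were up to 12 per direction with the largest fitted change and no overlap between libraries at a mean over 100 CPM, up to 6 of the most abundant genes and 3 opposed calls per list, the gate genes, Casp8, Itgax, microglia genes the paper names, and up to 8 genes per interaction. Lyve1, Folr2, Siglec1, Cd163, Ly6g, Cd3e, Cd3d, Trac, Ncr1, Cxcr2 and Cxcr4, and P2ry12 among the interactions, were added after their values were seen. Gene positions are from GENCODE vM21 (GRCm38). DESeq2 1.42.0 and voom (limma 3.58.1) were alternatives. Several items are not reported here. The steps were tested on simulated data.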

Additional observations from a re-analysis of the deposited data

Results flagged for a closer look

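Of 244 values tested for a library far from the other 3 of the microglia group, 22 passed Dixon's limit. Chance flags about 1 in 20 where values are normally distributed, and CPM need not be. A gene with 0 counts in all but 1 library always passes, as Chil3, Jchain, Mcpt8, Hbb-bt and C3 did. The 22 are therefore not set against that share. In replicate 2, low values were Sparc at 2990.4 and Hk2 at 373.99 CPM, and high values were Chil3 at 21.839, Camp at 23.375, Hbb-bt at 61.934, Il21r at 282.88 and Itgb2 at 604.33 CPM, and the summed erythroid and platelet markers at 254.05 CPM. In replicate 3, high values were Gas6 at 1035.6, Slc2a1 at 423.07, C3 at 7.7392, Hmox1 at 386.77 and Dnajb1 at 623.56 CPM. In replicate 1, low values were Stab1 at 118.22, Bank1 at 40.167 and Ccl4 at 827.56 CPM, and high values were Mcpt8 at 14.7 and Gpi1 at 98.347 CPM. In replicate 5, high values were Mrc1 at 116.15 and Jchain at 9.6599 CPM, and low values were C1qb at 1758.3 and Cox6a1 at 87.411 CPM.

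The difference between the cell types was called as not the same at the other age or in the other genotype for 17 of the named gene results, by the interaction in edgeR. Against WT mice of 5–6 months, the log2 difference was 2.5065 for C1qa, 4.3673 for P2ry12, 5.2011 for Ly6c1, 7.079 for Vcam1 and 19.055 for Adora1. It was −8.3605 for Zfp839, −8.5684 for 4632427E13Rik and −5.0044 for Parp2. Against CReCOM mice of 11–12 months it was 7.8148 for Rab3il1, 2.6146 for C1qa, 4.3087 for P2ry12, 1.5043 for Cst3, 2.657 for H2-Aa, 2.4588 for Lmo2 and 1.8818 for Cd14. It was −5.8131 for Prkab1 and −4.7892 for Mtmr2. The value of Adora1, an adenosine receptor, is a fitted value that depends on the prior count, and its call was lost without WT macrophage replicate 2. Parp2 was called under 18 of 21 alternatives, Mtmr2 under 16 and Cd14 under 13.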

How the results depend on the processing

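Of 205 gene results, 164 kept their direction and their side of the threshold under every alternative that tested them (13 to 16 each), 40 lost their call under at least 1, Casp8 gained it under DESeq2 and both voom fits, and 0 changed direction. Counts of 853 and 972 genes became 253 and 282 under the stricter limits of 0.01 for the adjusted p and 4 for the fold, and 1488 of the genes were called higher in microglia by voom on 28 libraries. Leaving out 1 library gave 660 to 1014 and 713 to 932. With library totals in place of TMM the median of all genes was −0.11, and without macrophage replicate 4 the share of calls higher in microglia was 55.2% in place of 46.7%. The interaction counts were 13 for age and 18 for genotype. DESeq2 gave 237 and 290, no expression limit 156 and 205, and leaving out 1 library 8 to 32 and 6 to 59. For age, voom gave 5. The causes were not tested.

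Mouse numbers pair the cell types in 1 mouse here and in 9 over 28 libraries. With the mouse as a replicate block (voom, consensus correlation 0.0153) 1492 and 1396 genes were called, with 7 and 35 for the interactions. The list counts without macrophage replicate 7 and the list sums in other groups were alternatives chosen after seeing the data. The 3 macrophage libraries limit precision, with a biological coefficient of variation of 1.07 against 0.769 in microglia.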
